A study of Homo sapiens with 14 samples.

Results

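The genes described here are 6 transcription factors that drive the epithelial-to-mesenchymal transition (EMT), SNAI1, SNAI2, ZEB1, ZEB2, TWIST1 and TWIST2, the cadherins CDH1 and CDH2, and the mesenchymal proteins VIM and FN1. They were chosen by name, with earlier results of these data known. Each of the 10 symbols was matched to the gene symbols of the count tables, in which 26732 names are shared by both cell lines. RNA was sequenced from A549 and H1792, established human lung adenocarcinoma cell lines, after 48 h with 0.1 µM AMG900, an inhibitor of all aurora kinases, or with its solvent DMSO alone. A549 was grown in DMEM and gave 4 DMSO and 4 AMG900 libraries, while H1792 was grown in RPMI 1640 and gave 3 of each. The sample protocol speaks of 3 replicates per treatment, but 4 are titled for A549 and all were used. Nothing states that the replicates were independent cultures, so p-values measure the spread between these libraries, which may be technical. Each line is one cell line and stands for no other tumour.

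Epithelial cells hold to their neighbours through E-cadherin, the product of CDH1, whose tail binds catenins and through them the actin skeleton. In EMT the SNAIL factors (SNAI1 and SNAI2) and the ZEB factors (ZEB1 and ZEB2) bind E-box sequences and repress CDH1 and other junction genes, and the TWIST factors act beside them. N-cadherin, the product of CDH2, takes the place of E-cadherin in what is called the cadherin switch, while vimentin (VIM), an intermediate filament protein, and fibronectin (FN1), a matrix glycoprotein that integrins bind, become abundant. In carcinomas, cells often hold epithelial and mesenchymal genes side by side.

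Total counts ranged from 4254644 to 18962883 in A549 and from 42760874 to 79902934 in H1792. A gene with the same share of the counts thus carries less counting error in H1792. The smallest library, A549 DMSO replicate 1, stood apart from the other DMSO libraries for several of these genes. Levels are given in CPM, a gene's counts put on one common library total, after scaling by TMM, which sets libraries to a common level over most genes. Values within a line use that line's own libraries, and values set across the lines use all 14. Changes were tested with edgeR's quasi-likelihood test over all genes that passed the filter on low counts, with the Benjamini-Hochberg adjusted p given as FDR and a gene called at an FDR under 0.01. All 10 genes passed the filter in both lines. Genes with GC-rich transcripts had higher log2 fold changes than GC-poor ones (rank correlation of 0.50 over 12789 genes in A549 and 0.48 over 14375 in H1792). Among the 10 genes GC content ran from 38.9% (ZEB1) and 39.0% (ZEB2) through 41.2% (SNAI2), 43.1% (CDH2), 48.2% (CDH1), 50.8% (FN1), 54.3% (VIM), 57.2% (TWIST1) and 58.4% (SNAI1) to 62.3% (TWIST2). Values with that trend removed from every library (a GC correction) are therefore given beside the results of the 10 genes whose call they change. For the gene lists further below, corrected counts are given for some lists only. The named genes of those lists carry uncorrected values, so their calls may depend on the trend.

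RefSeq promoter windows on GRCh38.p14 were found for 6 of the 10 genes (ZEB1, ZEB2, TWIST2, CDH2, VIM and FN1), in 13 windows of the 250 bases before a start site. The E-box bound by SNAIL and ZEB factors, searched as CAGGTG and, for the other strand, CACCTG, was found in 2 of them, both at ZEB1, and in 17.5% of all 35116 promoter windows of that length. CDH2 is shown because it fell with AMG900 in both lines, FN1 because it moved apart in the lines, and ZEB1 because its windows held the motif. Each is written 5′ to 3′ on the strand of its gene, with the E-boxes in capitals. The windows are chr18:28177131-28177380 on the minus strand for CDH2 (66.0% GC), chr2:215436069-215436318 on the minus strand for FN1 (76.4% GC) and chr10:31318966-31319215 on the plus strand for ZEB1 (62.4% GC), where the motifs begin at positions -242 and -85 from the start.
CDH2: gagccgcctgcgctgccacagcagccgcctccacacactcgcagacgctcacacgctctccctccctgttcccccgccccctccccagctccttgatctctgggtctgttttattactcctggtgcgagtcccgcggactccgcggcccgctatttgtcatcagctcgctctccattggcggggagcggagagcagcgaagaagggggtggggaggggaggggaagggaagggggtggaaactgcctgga
FN1: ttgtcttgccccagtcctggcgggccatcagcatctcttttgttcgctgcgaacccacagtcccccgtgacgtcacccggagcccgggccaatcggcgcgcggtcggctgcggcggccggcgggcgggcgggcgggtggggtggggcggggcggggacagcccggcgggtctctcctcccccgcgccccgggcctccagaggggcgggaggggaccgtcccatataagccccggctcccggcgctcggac
ZEB1: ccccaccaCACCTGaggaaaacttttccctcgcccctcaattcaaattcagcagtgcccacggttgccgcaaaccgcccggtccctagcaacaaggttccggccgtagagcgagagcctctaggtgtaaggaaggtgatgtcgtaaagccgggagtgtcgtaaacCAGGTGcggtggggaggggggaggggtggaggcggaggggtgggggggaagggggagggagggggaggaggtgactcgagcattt
A match in these letters is a description and no evidence of binding, and the windows without one say nothing of the factors.

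In the GENCODE annotation of GRCh37, SNAI1 lies on chromosome 20 from 48599517 to 48605423, SNAI2 on chromosome 8 from 49830157 to 49834299, ZEB1 on chromosome 10 from 31607424 to 31818742 and ZEB2 on chromosome 2 from 145121931 to 145278624. TWIST1 lies on chromosome 7 from 19060614 to 19157259 and TWIST2 on chromosome 2 from 239756673 to 239832230. The cadherins are on chromosome 16 from 68771195 to 68869440 (CDH1) and chromosome 18 from 25512843 to 25757910 (CDH2), VIM is on chromosome 10 from 17270240 to 17279592 and FN1 on chromosome 2 from 216225163 to 216300796. Antisense genes overlap ZEB1, ZEB2 and VIM. The strand setting of the counting is not given in the sources used here, so reads of a gene and its antisense partner may not have been separated. ZEB1-AS1 averaged 1.3 CPM in A549 DMSO libraries and 3.25 CPM in H1792 DMSO libraries, while ZEB2-AS1 and VIM-AS1 stayed at or below 0.245 CPM in every group mean.

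Without the inhibitor, the lines differed in the levels of most of the 10 genes. Per kilobase of transcript, with scaling over all 14 libraries, VIM was the most abundant of the 10 in both lines, at 701.5 ± 62.2 CPM per kb in A549 DMSO libraries (SD, n = 4) and 1160 ± 77.9 in H1792 (SD, n = 3). FN1 came next with 48.8 ± 7.29 in A549 and 484.4 ± 72.4 in H1792, followed by CDH2 with 23.8 ± 2.06 and 119.3 ± 5.87. In A549 these were followed by TWIST2 (11.4 ± 1.55), and then by TWIST1 (5.98 ± 1.77), SNAI1 (5.96 ± 0.714), SNAI2 (5.96 ± 1.65) and CDH1 (4.55 ± 1.07), whose ranges over libraries overlapped one another. ZEB1 (1.38 ± 0.206) and ZEB2 (0.763 ± 0.216) were lowest there, with ranges that did not overlap. In H1792 the order below CDH2 was TWIST1 (39.1 ± 3.70), TWIST2 (24.4 ± 2.06), SNAI1 (19.9 ± 0.381), ZEB2 (1.98 ± 0.239), ZEB1 (1.75 ± 0.397), SNAI2 (0.927 ± 0.247) and CDH1 (0.145 ± 0.0204), and in it ZEB2 and ZEB1 overlapped. The plot of levels per transcript length with DMSO shows both orders.

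**Figure D1:**
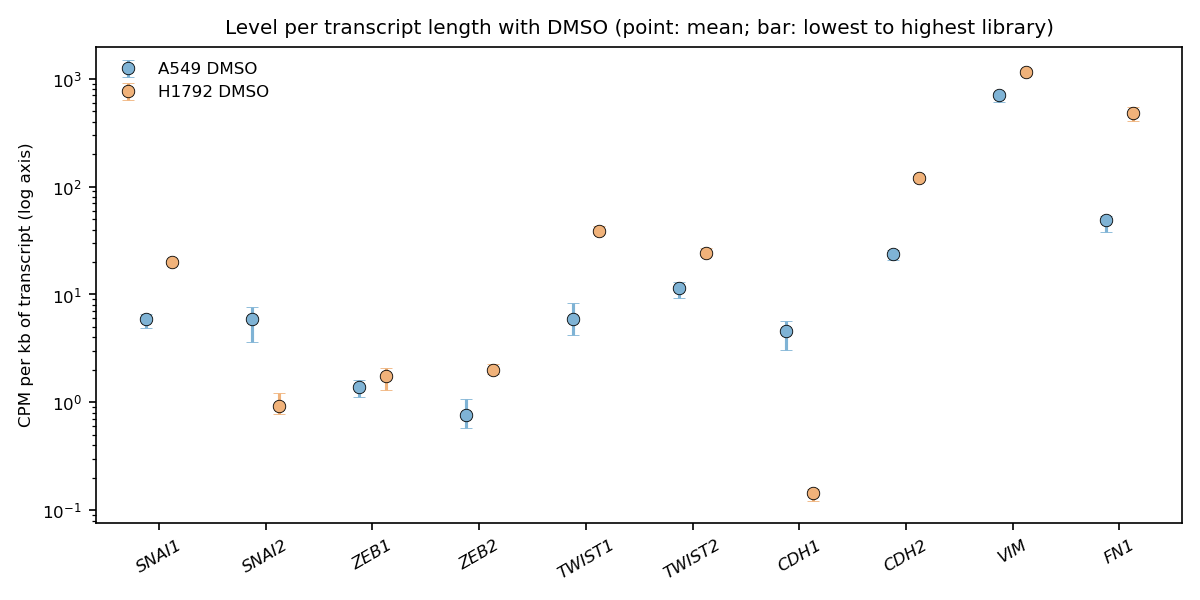
Levels of the 10 genes in DMSO libraries, in CPM per kb of transcript on a log axis, for A549 (blue, 4 libraries) and H1792 (orange, 3 libraries). Points are means and bars run from the lowest to the highest library. SNAI2 and CDH1 lie lower in H1792, the ZEB1 ranges overlap, and the other genes lie higher in H1792.

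Between the DMSO groups, 7 of the 10 genes were higher and 2 lower in H1792, where 34.2% and 31.9% of all 14769 genes tested were called in these directions. CDH1 was the most unequal, 31.6-fold lower in H1792 (log2 difference -4.98, SE 0.19, FDR = 1.3e-14), with 25 to 48 counts per library in H1792 DMSO against 67 to 384 in the much smaller A549 libraries. SNAI2 was 6.61-fold lower in H1792 (log2 -2.73, SE 0.22, FDR = 8.82e-10). In the other direction, FN1 was 9.90-fold, TWIST1 6.89-fold, CDH2 4.99-fold, SNAI1 3.27-fold, ZEB2 2.53-fold, TWIST2 2.14-fold and VIM 1.65-fold higher in H1792 (log2 from 0.73 to 3.31, largest FDR = 1.12e-06 for ZEB2). ZEB1 differed by 0.33 on the log2 scale (95% interval -0.04 to 0.69, FDR = 0.0939) and was called without H1792 DMSO replicate 1 (0.56, FDR = 0.00586). A549 libraries thus held both cadherins and more SNAI2, and H1792 libraries held CDH2 with little CDH1. Line, medium, table and depth change together here and cannot be told apart.

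With AMG900, 2 of the 10 genes rose and 4 fell in A549, and 2 rose and 2 fell in H1792. Over all 13174 genes tested in A549, 17.2% were called higher and 17.8% lower, and over all 15017 in H1792 these were 16.2% and 18.8%. In A549, CDH1 and FN1 rose and SNAI1, SNAI2, ZEB1 and CDH2 fell. In H1792, SNAI1 and VIM rose and ZEB2 and CDH2 fell. CDH2 was thus the gene called in the same direction in both lines, and SNAI1 was called in opposite directions. In bulk libraries, fewer cells with a transcript and less of it per cell cannot be told apart. Every AMG900 library lay above every DMSO library for 2 genes in A549 and 6 in H1792, and below for 3 and 2, where such separation was seen in 21.9% (above) and 22% (below) of genes in A549 and in 30.1% and 29.6% in H1792. With the GC correction, the genes that rose were CDH1 and FN1 in A549 and SNAI2 in H1792, and those that fell were SNAI1 and VIM in A549 and CDH2 in H1792, beside 14.7% of all genes higher and 18.3% lower in A549 and 15.2% and 22.7% in H1792. CDH1 and FN1 in A549, SNAI1 in A549 and CDH2 in H1792 were called by both.

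**Figure D2:**
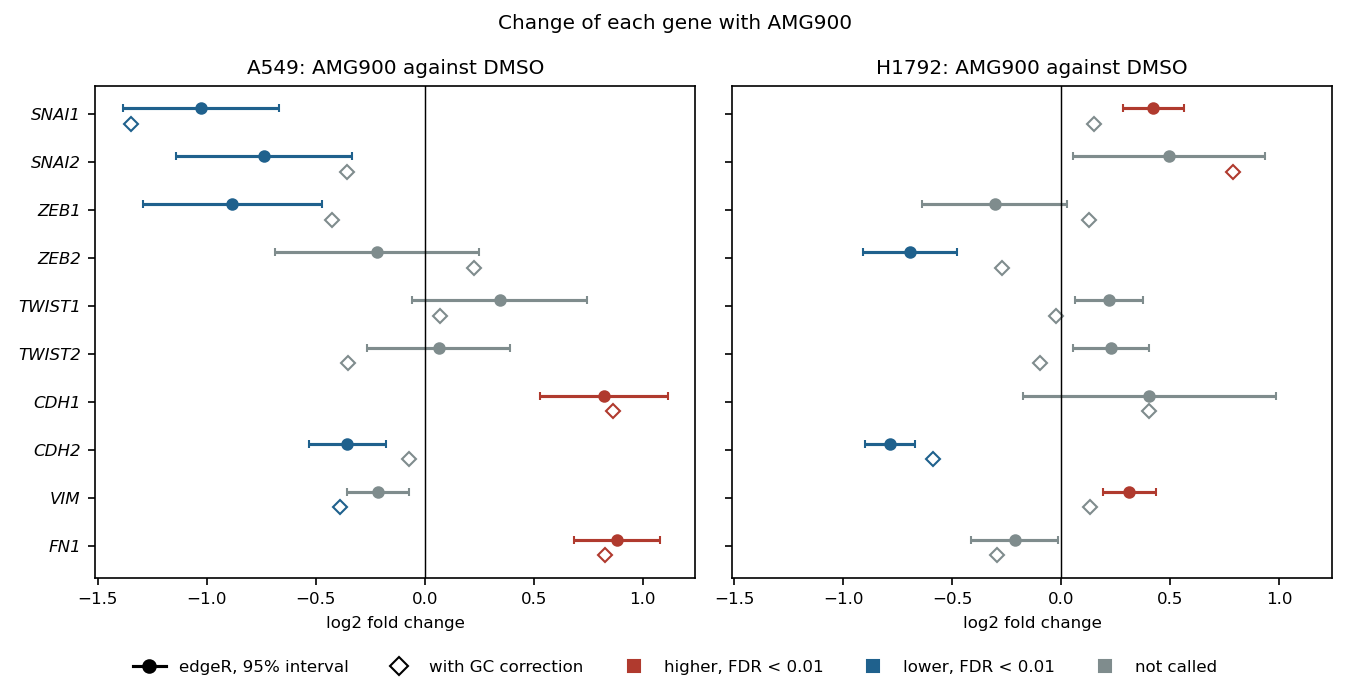
Log2 fold changes of AMG900 against DMSO for the 10 genes, in A549 on the left and H1792 on the right. Circles with bars are edgeR estimates with 95% intervals, and open diamonds are the estimates with the GC correction. Red and blue mark genes called higher and lower at an FDR under 0.01. SNAI1 lies at -1.03 in A549 and at 0.42 in H1792.

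The difference between the lines in the AMG900 effect was tested as an interaction in a fit of all 14 libraries, where the median over all genes was -0.098. It was called for 5 of the 10 genes, higher in H1792 for SNAI1, SNAI2 and VIM and lower for CDH2 and FN1, beside 5.37% and 9.17% of all genes in these directions. Its sizes on the log2 scale were 1.39 for SNAI1 (SE 0.16, FDR = 2.47e-06), 1.16 for SNAI2 (SE 0.29, FDR = 0.00581), 0.45 for VIM (SE 0.09, FDR = 0.00141), -0.50 for CDH2 (SE 0.10, FDR = 0.00113) and -1.17 for FN1 (SE 0.14, FDR = 5.5e-06). These 5 calls were also made with the GC correction. The other 5 genes were not called, with differences from -0.54 for ZEB2 (95% interval -1.06 to -0.02, FDR = 0.126) to 0.50 for ZEB1 (-0.02 to 1.03, FDR = 0.158), and CDH1 lay at -0.50 (-1.05 to 0.05, FDR = 0.183). The SNAI2 difference was called in 4 of the 14 fits that each left out a library (log2 1.03 to 1.19 where the call was lost), and the libraries whose absence kept the call were A549 DMSO replicate 1, A549 AMG900 replicates 1 and 4 and H1792 DMSO replicate 2.

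The SNAIL factors moved apart in the lines. SNAI1, a zinc finger repressor of CDH1, measured 8.93, 11.02, 11.7 and 10.9 CPM in the A549 DMSO libraries and 4.63, 6.39, 5.07 and 4.98 CPM with AMG900. The groups did not overlap, and SNAI1 fell 2.04-fold (log2 -1.03, SE 0.17, FDR = 0.000164), a call that held in each of the 8 fits without 1 library and grew to -1.35 with the GC correction. In H1792 the same gene measured 33.8, 33.0 and 32.7 CPM with DMSO and 46.8, 44.3 and 42.2 CPM with AMG900. There too the groups were apart, but SNAI1 rose 1.34-fold (log2 0.42, SE 0.06, FDR = 0.000358). With the GC correction this increase was 0.15 and not called (FDR = 0.0518).

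SNAI2, or Slug, measured 8.46, 17.5, 14.6 and 13.8 CPM in A549 DMSO libraries and 9.64, 7.72, 7.23 and 8.99 CPM with AMG900. DMSO replicate 1, the smallest library with 36 counts for this gene, lay inside the AMG900 range and the other DMSO libraries above it. SNAI2 fell 1.67-fold (log2 -0.74, SE 0.19, FDR = 0.00491), but the call held in 2 of the 8 fits that each left out a library, those without DMSO replicate 1 or AMG900 replicate 1, and it was lost with the GC correction (-0.35, FDR = 0.138). In H1792, where SNAI2 had 74 to 207 counts per library, it measured 1.65, 2.59 and 1.69 CPM with DMSO and 2.66, 2.95 and 2.71 CPM with AMG900. All AMG900 libraries were above all DMSO libraries, with a log2 difference of 0.49 (95% interval 0.05 to 0.93, FDR = 0.0597) that was called without DMSO replicate 2 (0.72, FDR = 0.00657) and with the GC correction (0.79, FDR = 0.00401).

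The ZEB factors, paired zinc finger repressors that the miR-200 family holds down in epithelial cells, had lower AMG900 means in both lines, with 1 of them called in each. ZEB1 measured 8.46, 7.01, 9.87 and 8.96 CPM in A549 DMSO libraries and 3.59, 5.19, 5.45 and 4.27 CPM with AMG900. It fell 1.84-fold without overlap (log2 -0.88, SE 0.19, FDR = 0.00165), on 36 to 151 counts per library, and the GC correction left -0.42 (FDR = 0.0894). In H1792, ZEB1 measured 7.60, 12.1 and 10.8 CPM with DMSO and 8.22, 7.97 and 8.39 CPM with AMG900. The DMSO libraries spread around the AMG900 libraries because replicate 1 lay below them, and the log2 difference was -0.31 (95% interval -0.64 to 0.03, FDR = 0.115). Without that library it was -0.51 (FDR = 0.000431), and with the GC correction it was 0.13 (FDR = 0.376).

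ZEB2 measured 6.35, 5.64, 10.2 and 7.30 CPM in A549 DMSO libraries and 6.90, 6.25, 7.82 and 4.78 CPM with AMG900, and the groups overlapped (log2 -0.22, 95% interval -0.69 to 0.25, FDR = 0.429). In H1792 it measured 16.5, 20.4 and 16.7 CPM with DMSO and 11.2, 11.1 and 10.8 CPM with AMG900. ZEB2 fell there 1.62-fold without overlap (log2 -0.70, SE 0.10, FDR = 0.000222) and in every fit without 1 library, while the GC correction left -0.27 (FDR = 0.0148). The ZEB genes have the lowest GC content of the 10, and each of their estimates moved upwards with the correction within a line.

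The TWIST factors, basic helix-loop-helix proteins of mesoderm, were not called in either line. TWIST1 measured 14.3, 7.28, 10.7 and 8.55 CPM in A549 DMSO libraries and 10.7, 13.97, 12.95 and 12.3 CPM with AMG900. The highest DMSO value was that of replicate 1, and the log2 difference was 0.34 (95% interval -0.06 to 0.74, FDR = 0.143). In H1792, TWIST1 measured 68.6, 57.3 and 60.7 CPM with DMSO and 71.6, 71.4 and 74.4 CPM with AMG900. These did not overlap, with a log2 difference of 0.22 (95% interval 0.06 to 0.38, FDR = 0.0251). TWIST2 lay at 8.92 to 12.3 CPM with DMSO and 9.83 to 13.3 CPM with AMG900 in A549 (log2 0.06, 95% interval -0.27 to 0.39, FDR = 0.756), where its sign turned with total-count scaling, with the GC correction, and without DMSO replicate 2 or AMG900 replicate 4. In H1792 it measured 23.5, 20.9 and 20.1 CPM with DMSO and 25.6, 24.6 and 25.4 CPM with AMG900 (log2 0.23, 95% interval 0.06 to 0.40, FDR = 0.0314). Both genes were called higher in H1792 without DMSO replicate 1 (TWIST1 0.27, FDR = 0.000379, and TWIST2 0.28, FDR = 0.00357), and both H1792 differences lay below 0 with the GC correction (-0.03 and -0.10, neither called).

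**Figure D3:**
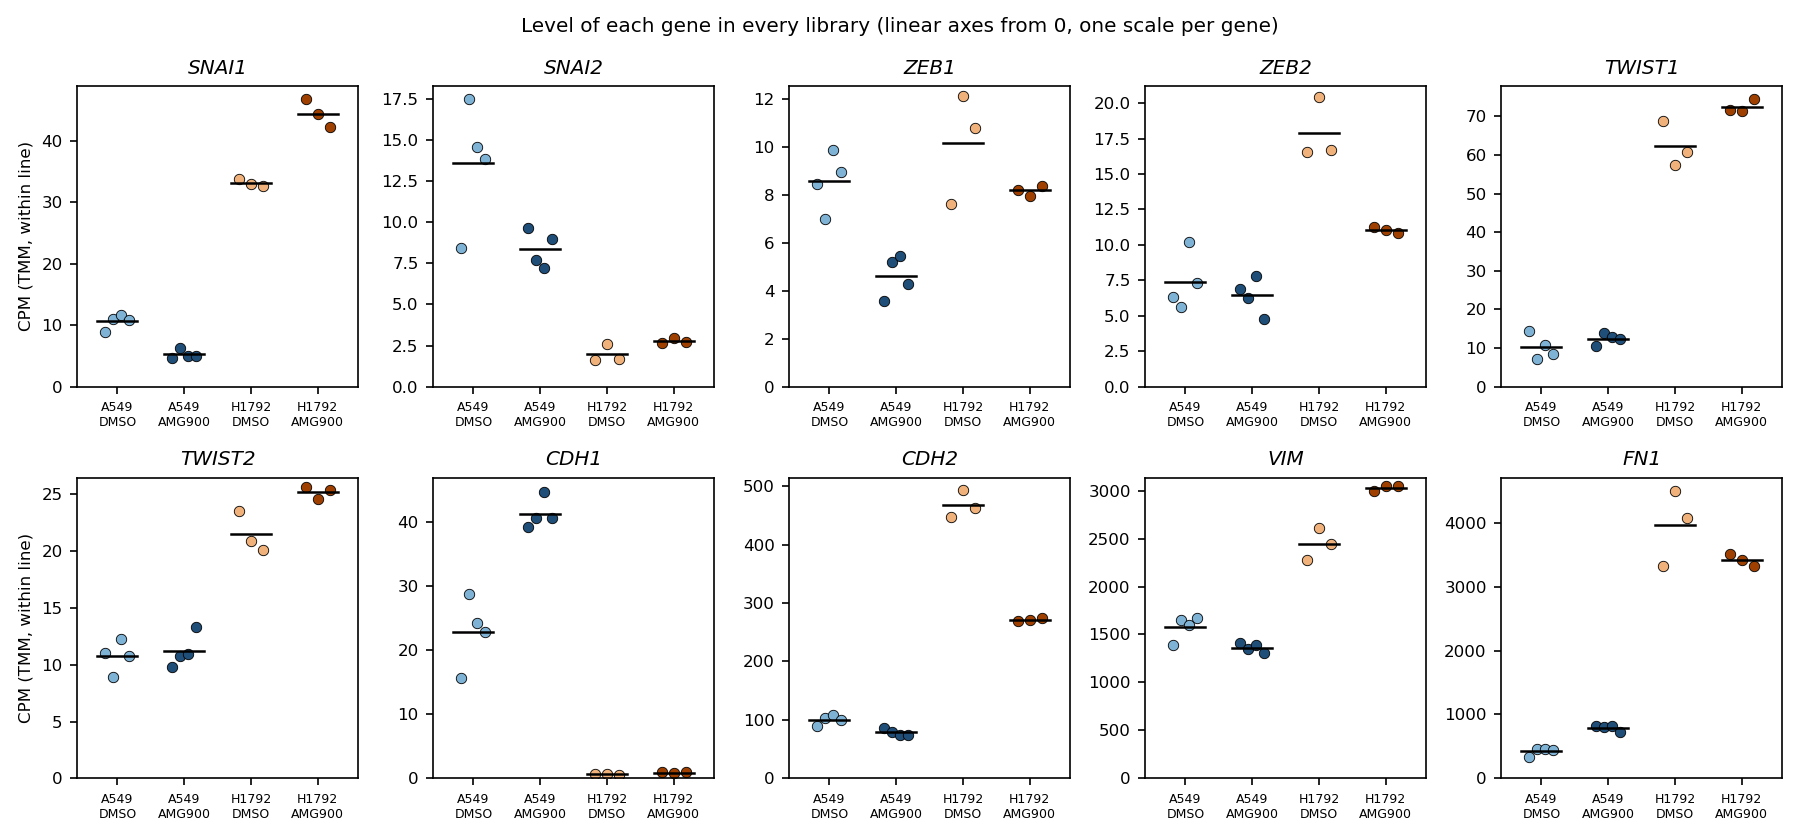
Level of each of the 10 genes in every library, in CPM scaled within the line, on linear axes that start at 0 and differ between genes. Points are libraries (A549 DMSO and AMG900 in light and dark blue, 4 each, and H1792 in light and dark orange, 3 each) and lines are group means. CDH1 and FN1 rise with AMG900 in A549, CDH2 falls in both lines, and CDH1 is near 0 in all H1792 libraries.

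The cadherins moved in opposite directions in A549. CDH1 measured 15.7, 28.8, 24.2 and 22.8 CPM in the DMSO libraries and 39.2, 40.6, 44.8 and 40.7 CPM with AMG900. Every AMG900 library was above every DMSO library, and CDH1 rose 1.77-fold (log2 0.82, SE 0.14, FDR = 0.000198), in all 8 fits without 1 library and with the GC correction (0.86, FDR = 4.29e-05). CDH2 measured 89.1, 103.2, 107.6 and 99.8 CPM with DMSO and 86.4, 79.5, 74.6 and 73.8 CPM with AMG900. The groups were apart by a small gap, and CDH2 fell 1.28-fold (log2 -0.35, SE 0.08, FDR = 0.00285). That call was lost without DMSO replicate 2, DMSO replicate 3, AMG900 replicate 3 or AMG900 replicate 4 (FDR from 0.0106 to 0.0145) and with the GC correction (-0.07, FDR = 0.448).

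In H1792, CDH2 was called and CDH1 was not. CDH2 measured 447.3, 493.7 and 462 CPM with DMSO and 269.6, 270.9 and 273.5 CPM with AMG900. It fell 1.72-fold, far beyond the spread between libraries (log2 -0.79, SE 0.05, FDR = 3.22e-06), and ranked 95 by p among the 15017 genes tested. With the GC correction it fell by 0.59 on the log2 scale (FDR = 1.22e-06). CDH1 was close to absent, with 0.734, 0.739 and 0.570 CPM in DMSO libraries and 0.913, 0.759 and 1.04 CPM with AMG900, on 25 to 71 counts each. The AMG900 values were all above the DMSO values, but the log2 difference of 0.40 had a 95% interval from -0.18 to 0.98 (FDR = 0.221), which spans no change and the increase seen in A549.

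The balance of the cadherins was followed within each library as the log2 ratio of CDH2 to CDH1 counts, which needs no scaling between libraries. In A549 the ratio was 2.49, 1.84, 2.15 and 2.13 with DMSO and 1.14, 0.97, 0.74 and 0.86 with AMG900. It thus went from 2.15 ± 0.27 to 0.93 ± 0.17 (SD, n = 4), or from 4.45 to 1.90 CDH2 counts for each CDH1 count, without overlap. In H1792 it was 9.24, 9.37 and 9.64 with DMSO and 8.20, 8.46 and 8.03 with AMG900, a mean of 9.41 ± 0.20 against 8.23 ± 0.22 (SD, n = 3). The counts of the H1792 libraries went from 681 to 300 CDH2 for each CDH1. The shift was -1.23 in A549 and -1.18 in H1792, and with 1 library left out at a time it stayed between -1.33 and -1.12 and between -1.30 and -1.07. In A549 most of it came from CDH1 and in H1792 from CDH2, and the AMG900 libraries of H1792 remained far on the CDH2 side of the DMSO libraries of A549. The ratio is given without a p-value and without the GC correction. In the corrected edgeR fits, the log2 changes of CDH2 and CDH1 were -0.07 and 0.862 in A549 and -0.587 and 0.405 in H1792.

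**Figure D4:**
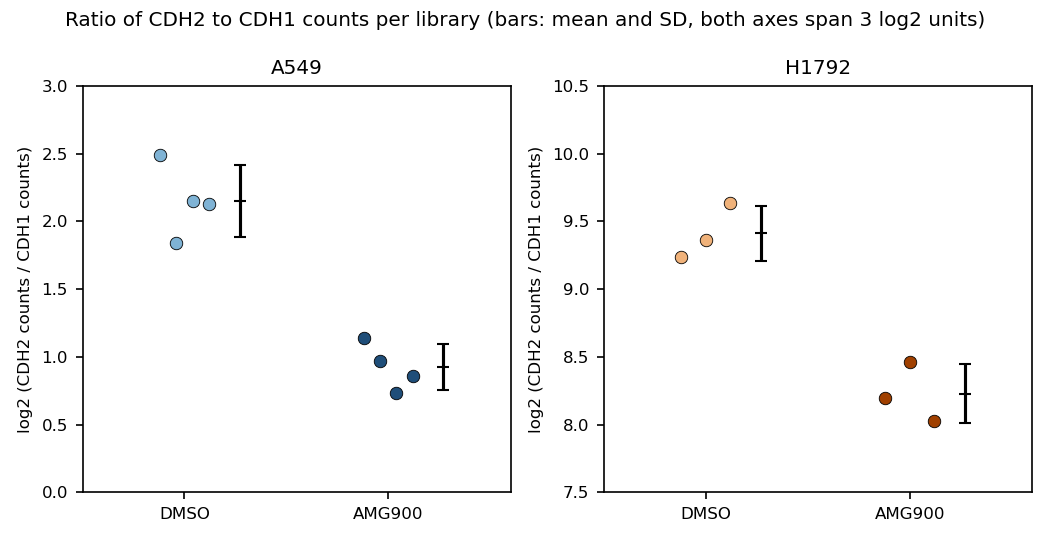
Log2 ratio of CDH2 to CDH1 counts in each library, for A549 (left) and H1792 (right) with DMSO and AMG900. Points are libraries, bars give the mean and SD, and both axes span the same number of log2 units from different starts. The means fall from 2.15 to 0.93 in A549 and from 9.41 to 8.23 in H1792, and no library of one treatment overlaps the other.

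VIM, which builds the intermediate filaments of mesenchymal cells, was abundant in every library. In A549 it measured 1395, 1654, 1601 and 1670 CPM with DMSO and 1407, 1344, 1388 and 1310 CPM with AMG900. DMSO replicate 1 lay among the AMG900 libraries and the other DMSO libraries were above them, with a log2 difference of -0.21 (95% interval -0.36 to -0.07, FDR = 0.0142). VIM in A549 was called lower without DMSO replicate 1 (-0.27, FDR = 2.95e-05), with scaling by total counts (-0.29, FDR = 0.00309), with the GC correction (-0.39, FDR = 3.61e-05) and with DESeq2 (-0.21, adjusted p = 0.00998). In H1792 it measured 2272, 2607 and 2442 CPM with DMSO and 2995, 3050 and 3050 CPM with AMG900. These were apart, and VIM rose 1.24-fold (log2 0.31, SE 0.06, FDR = 0.000963), with 0.13 and no call under the GC correction (FDR = 0.0921).

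FN1 changed most firmly in A549 and in the direction of CDH1. It measured 337.2, 466.9, 462.1 and 446.4 CPM in A549 DMSO libraries and 819.8, 798.4, 814.3 and 730.6 CPM with AMG900. FN1 rose 1.84-fold (log2 0.88, SE 0.09, FDR = 2.48e-06) in all 8 fits without 1 library (0.79 to 0.92), and by 0.83 with the GC correction (FDR = 3.27e-07). In H1792 it measured 3322, 4503 and 4081 CPM with DMSO and 3513, 3426 and 3330 CPM with AMG900. DMSO replicate 1 lay below every AMG900 library and the other DMSO libraries above them, so the groups overlapped (log2 -0.21, 95% interval -0.41 to -0.01, FDR = 0.0721). Without that library FN1 was called lower in H1792 (-0.35, FDR = 1.66e-05).

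Junction and epithelial identity genes were then counted as the setting of CDH1. Of 34 tested in each line, 12 rose and 3 fell in A549 (median log2 0.25) and 10 rose and 4 fell in H1792 (median 0.14), beside medians of -0.01 and 0.009 over all genes. Each list stands beside the share of all genes tested, 17.2% higher and 17.8% lower in A549 and 16.2% and 18.8% in H1792. All lists were chosen with earlier results of these data known. In A549 the largest increases were those of SPINT1, an inhibitor of the protease matriptase (0.205 to 1.71 CPM, log2 3.04, FDR = 4.37e-05), which also rose in H1792 (log2 1.28, FDR = 9.43e-06), TJP3, a tight junction scaffold (1.6 to 5.05 CPM, log2 1.88, FDR = 0.000194), and CLDN4, a claudin of tight junctions (1.61 to 4.56 CPM, log2 1.59, FDR = 0.000412). CLDN4 also rose in H1792 (7.39 to 22.0 CPM, log2 1.57, FDR = 2.96e-06), with SPINT2 (log2 1.63, FDR = 0.000841) and ST14, which encodes matriptase (log2 1.36, FDR = 0.00287), and SPINT2 rose in A549 as well (log2 0.51, FDR = 3.85e-05). MPP5, a polarity scaffold, fell in both lines (log2 -1.26, FDR = 2.74e-05 in A549 and -0.95, FDR = 0.000166 in H1792), as did the polarity protein PARD3 (-0.35, FDR = 0.00156 and -0.30, FDR = 0.00127). The tight junction scaffold TJP1 fell in A549 (113 to 64.8 CPM, log2 -0.81, FDR = 3.53e-06), and DSG2, a desmosomal cadherin (50.9 to 31.8 CPM, log2 -0.68, FDR = 8.95e-05), fell in H1792.

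**Figure D5:**
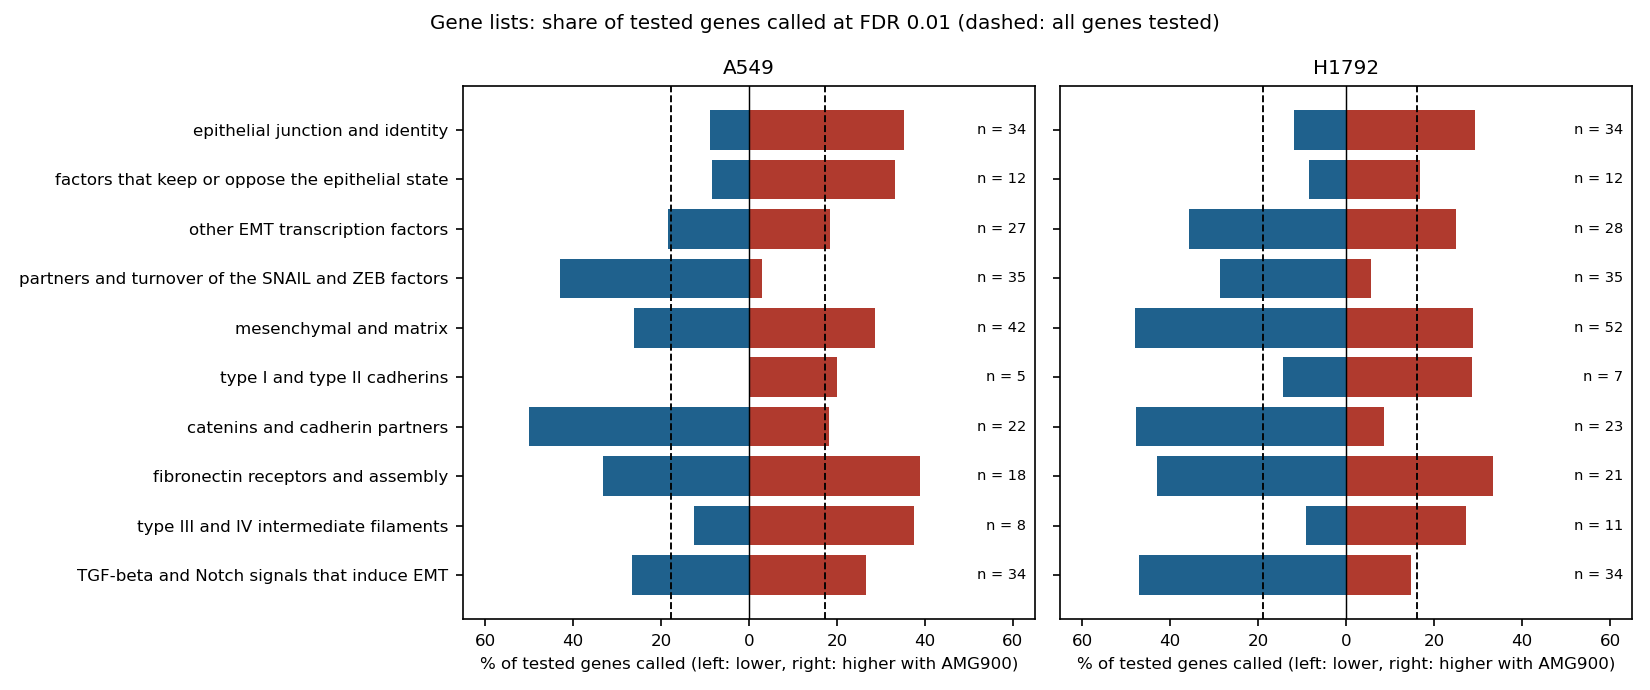
Share of the tested genes of 10 lists called higher (red, to the right) and lower (blue, to the left) with AMG900 at an FDR under 0.01, in percent, for A549 and H1792, with the number tested at the right. Dashed lines give the share over all genes tested. Catenins and cadherin partners lie at 50% lower in A549 and 47.8% in H1792.

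Catenins and other partners of cadherins fell more often than they rose, 11 of 22 against 4 in A549 (median log2 -0.39) and 11 of 23 against 2 in H1792 (median -0.26). CTNNAL1, a relative of alpha-catenin, fell in both lines (log2 -2.01, FDR = 3.48e-06 in A549 and -0.93, FDR = 1.73e-05 in H1792), as did VCL, the actin linker vinculin, in A549 (284 to 137 CPM, log2 -1.06, FDR = 1.07e-07) and H1792 (-0.73, FDR = 6.75e-06). CTNND1, the p120 catenin that keeps cadherins at the surface, fell in H1792 (6.10 to 1.93 CPM, log2 -1.65, FDR = 3.98e-05) and in A549 (-1.03, FDR = 0.0042). PVRL3, the adhesion molecule nectin-3, fell in H1792 (log2 -1.96, FDR = 3.43e-05). The members that rose in A549 included CTNNA2 (log2 2.70, FDR = 9.95e-05), ARVCF (log2 2.16, FDR = 2.27e-06) and JUP, plakoglobin (123 to 345 CPM, log2 1.49, FDR = 7.9e-10), and JUP also rose in H1792 (120 to 144 CPM, log2 0.26, FDR = 0.0024). RAP1GAP, which switches off the small GTPase Rap1, fell in A549 (log2 -1.21, FDR = 7.12e-07) and rose in H1792 (0.57, FDR = 0.000276). With the GC correction 5 rose and 10 fell in A549, and 1 rose and 11 fell in H1792. Of the other classical cadherins, 5 were tested in A549, where CDH4 rose (41.4 to 68.9 CPM, log2 0.73, FDR = 1.63e-05) and 0 fell, and 7 in H1792, where CDH24 (log2 0.45, FDR = 0.0019) and CDH5 (0.0799 to 0.390 CPM, log2 2.29, FDR = 0.00258) rose and CDH6 fell (9.12 to 5.50 CPM, log2 -0.73, FDR = 0.000399).

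Genes for corepressors, kinases and ubiquitin enzymes that act on the SNAIL and ZEB proteins were called lower in 15 of 35 and higher in 1 in A549 (median log2 -0.43), and lower in 10 of 35 and higher in 2 in H1792 (median -0.14). EZH2, the histone methyltransferase of the Polycomb complex, fell in A549 (32.4 to 7.90 CPM, log2 -1.99, FDR = 4.3e-07) and in H1792 (-0.34, FDR = 0.00524), and SUV39H1, which methylates histone H3, fell in A549 (41.7 to 11.6 CPM, log2 -1.86, FDR = 4.15e-08). FBXO45, a ubiquitin ligase subunit, fell in A549 too (log2 -1.46, FDR = 0.00123). CSNK1A1, a kinase that primes substrates for turnover, fell in H1792 (48.4 to 17.1 CPM, log2 -1.50, FDR = 4.93e-07) and in A549 (-0.91, FDR = 7.18e-07), as did the Polycomb subunit SUZ12 (-1.46, FDR = 7.72e-05 in H1792 and -1.35, FDR = 8.34e-05 in A549). FBXL5 fell in H1792 (log2 -1.31, FDR = 0.00198), while PTK6 rose there (1.12, FDR = 0.00441). USP11, a deubiquitinase, rose by a small amount in both lines (0.31, FDR = 0.00214 in A549 and 0.28, FDR = 0.000873 in H1792).

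Other transcription factors linked to EMT were called in both directions, 5 higher and 5 lower of 27 in A549. In H1792 7 were higher and 10 lower of 28. The list also holds inhibitors such as ID2, so its counts are not those of EMT inducers alone. The A549 shares, 18.5% each, were near those of all genes (17.2% and 17.8%). The H1792 shares were 25% and 35.7%, beside 16.2% and 18.8%. TCF12, an E-box binding helix-loop-helix factor, fell in both (log2 -0.96, FDR = 3.94e-06 in A549 and -0.99, FDR = 0.000164 in H1792), as did ETV5 (-0.73, FDR = 0.000212 and -0.70, FDR = 5.57e-05). SOX4 rose in A549 (125 to 227 CPM, log2 0.87, FDR = 2.44e-07) and fell in H1792 (-0.53, FDR = 4.26e-05), while ETS2 fell in A549 (178 to 93.4 CPM, log2 -0.93, FDR = 1.25e-07) and rose in H1792 (0.29, FDR = 0.00106). SNAI3 (log2 1.17, FDR = 0.00813) and FOXQ1 (26.2 to 49.2 CPM, log2 0.96, FDR = 0.000187) rose and SIM2 fell (-0.96, FDR = 7.17e-06) in A549. In H1792, ID2, an inhibitor of helix-loop-helix factors (log2 1.89, FDR = 0.000365), FOXS1 (1.71, FDR = 0.00494) and RUNX1 (38.5 to 52.7 CPM, 0.45, FDR = 0.000122) rose and BACH1 fell (-1.15, FDR = 0.000156). With the GC correction the genes called higher in A549 numbered 3.

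Of the factors that hold the epithelial state, 12 were tested in each line, with 4 higher and 1 lower in A549 and 2 higher and 1 lower in H1792. The share called higher was 33.3% in A549, beside 17.2% of all genes, and 16.7% in H1792, near the 16.2% of all genes. The share called lower was 8.33% in each line, beside 17.8% and 18.8%. ELF3, an epithelial ETS factor, rose in both (171 to 303 CPM, log2 0.82, FDR = 1.75e-07 in A549 and 23.0 to 43.1 CPM, 0.90, FDR = 2.79e-05 in H1792). GRHL3, a grainyhead factor of epithelia, rose in A549 (0.513 to 5.22 CPM, log2 3.87, FDR = 7.5e-06), as did EHF (0.78, FDR = 0.00668), and KLF4 fell (-0.81, FDR = 0.00909). In H1792, HNF4A was called higher at levels of 0.033 and 0.224 CPM (FDR = 0.00726), and GATA6 fell (138 to 104 CPM, log2 -0.41, FDR = 0.000139).

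The mesenchymal and matrix genes did not follow VIM or FN1 as a body. In A549 12 of 42 rose and 11 fell (median log2 0.14), and in H1792 15 of 52 rose and 25 fell (median -0.17), with 9 higher and 20 lower in H1792 under the GC correction. THBS1, the matrix protein thrombospondin-1 (log2 -1.42, FDR = 3.28e-07 and -1.51, FDR = 2.44e-07), ITGAV, the alpha-v integrin (-1.27, FDR = 1.59e-06 and -1.55, FDR = 2.52e-06), and COL1A1, a chain of type I collagen (-1.14, FDR = 9.89e-07 and -0.58, FDR = 0.000215), fell in A549 and H1792. In A549, ACTA2, smooth muscle actin, rose (53.7 to 193 CPM, log2 1.85, FDR = 4.13e-11), with SPARC (1.48, FDR = 3.1e-05) and SERPINE2 (172 to 367 CPM, 1.09, FDR = 3.3e-08). In H1792 the contractile genes CNN1 (0.286 to 3.65 CPM, log2 3.64, FDR = 1.06e-05) and MYL9 (1.10, FDR = 7.9e-06) and the proteoglycan BGN (1.61, FDR = 6.07e-06) rose, and POSTN, periostin, fell (153 to 54.6 CPM, -1.49, FDR = 3.17e-05). The difference between the lines was called lower in H1792 for 13 of 53 genes (24.5%) and higher for 4 (7.55%). Over all genes these shares were 9.17% and 5.37%. The lean was not particular to this list. Over the 10 lists the share called lower ran from 0% (other cadherins) to 31.4% (signals linked to EMT), with 26.1% for catenins and cadherin partners.

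Receptors and assembly factors of fibronectin were called in both directions as well, 7 higher and 6 lower of 18 in A549 and 7 higher and 9 lower of 21 in H1792, the 7 becoming 2 in H1792 under the GC correction. In A549, ITGA5, the alpha-5 integrin that binds fibronectin, rose beside FN1 (134 to 211 CPM, log2 0.65, FDR = 2.92e-06), and it also rose in H1792 (0.21, FDR = 0.00693). PLAUR, the urokinase receptor, rose in A549 (61.2 to 126 CPM, log2 1.05, FDR = 7.1e-08) and H1792 (0.36, FDR = 0.000371), and PLAU, urokinase, in H1792 (306 to 453 CPM, 0.57, FDR = 1.06e-05) and A549 (0.63, FDR = 1.53e-06). TNS1, a tensin of fibrillar adhesions, rose in H1792 (0.43, FDR = 0.00987) and in A549 (0.56, FDR = 0.00244). FERMT2, an integrin activator, fell in both (-1.43, FDR = 0.00275 in A549 and -1.31, FDR = 4.31e-05 in H1792), ITGA4 fell in H1792 (-1.35, FDR = 8.56e-06), and FBLN2 rose in A549 (1.56, FDR = 0.0073). FBLN1, a matrix protein that binds fibronectin, fell in A549 (68.8 to 35.2 CPM, log2 -0.97, FDR = 1.3e-06) and rose in H1792 (46.2 to 61.6 CPM, 0.42, FDR = 0.000782).

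Among the relatives of vimentin, 3 of 8 rose and 1 fell in A549 and 3 of 11 rose and 1 fell in H1792. SYNM, synemin, which pairs with vimentin in filaments, fell in both lines (90.1 to 54.8 CPM, log2 -0.72, FDR = 2.62e-06 in A549 and 27 to 17.6 CPM, -0.62, FDR = 7.31e-05 in H1792). The neurofilament gene NEFL (15.5 to 38.4 CPM, log2 1.38, FDR = 1.04e-05), SYNC (0.66, FDR = 0.00477) and INA (0.56, FDR = 0.000293) rose in A549, and DES, desmin (0.0688 to 1.06 CPM, 3.90, FDR = 2.55e-05), PRPH (2.11, FDR = 0.000145) and GFAP (0.61, FDR = 0.0045) rose in H1792 from low levels.

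Among genes of TGF-beta, Notch and other signals linked to EMT, 9 rose and 9 fell of 34 in A549. In H1792 5 rose and 16 fell, and the median was -0.21 in each line. The list holds inhibitors of these signals, such as SMAD6, SMAD7, SKI and SKIL, beside inducers, so its counts give no direction of signalling. HIF1A, the oxygen-sensing factor, fell in both lines (39.7 to 9.02 CPM, log2 -2.14, FDR = 4.23e-07 in H1792 and -1.28, FDR = 0.00221 in A549), as did SMAD4, the shared mediator of TGF-beta signals (-0.82, FDR = 0.000138 and -0.997, FDR = 3.47e-05), and NOTCH2 (-0.52, FDR = 0.00128 and -0.95, FDR = 6.55e-06). NOTCH3 rose in A549 (15.9 to 35.6 CPM, 1.17, FDR = 2.3e-06) and fell in H1792 (-0.21, FDR = 0.00867). The cytokines IL6 (6.75 to 32.4 CPM, log2 2.26, FDR = 1.59e-09) and CXCL8 (28.8 to 83.9 CPM, 1.51, FDR = 5.81e-07) rose in A549. In H1792, IL11 (17.3 to 65.3 CPM, 1.92, FDR = 2.14e-07) and LIF (99.5 to 194 CPM, 0.96, FDR = 1.42e-06) rose, both of which also rose in A549 (0.42, FDR = 0.00306 and 0.38, FDR = 0.000887). BMP4 rose in H1792 (0.47, FDR = 0.000819) and A549 (0.76, FDR = 0.00017), while EPAS1 (178 to 70.7 CPM, -1.33, FDR = 2.14e-07) and TGFBR3, a TGF-beta co-receptor (-1.19, FDR = 0.000586), fell in H1792.

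The genes whose profile was most like each of the 10 were found over the 14 libraries, after the mean of each line was taken from its log2 CPM values. These correlations hold the treatment difference of both lines and are given as a description. For FN1 they were TRAK1 (r = 0.99), CXCL8 and GABARAPL1 (0.98 each), for CDH2 RBM3, TNS3 (0.98 each) and SSFA2 (0.97), and for CDH1 TINCR (0.98), VANGL2 (0.97) and RTN4RL1 (0.96). VIM was most like YBX1 and PNP (0.98 each) and STIP1 (0.97), and SNAI1 most like ARHGEF39, KNSTRN and TUBB4B (0.96 each). For the remaining genes r was smaller, with CDK6, RRN3 and TUBGCP4 for ZEB1 (0.93 each) and B4GALT6 (0.91), VCPIP1 (0.89) and PCMTD2 (0.87) for ZEB2. SNAI2 was most like MEMO1, OSER1 and BPTF (0.90 each). TWIST1 was most like TNNI3, TBX2 (0.93 each) and BRD9 (0.92), and TWIST2 most like ENTHD2 (0.94), CAPN10 and NBEAL2 (0.90 each). Among the 10 themselves, VIM and SNAI2 were the most alike (0.85), followed by CDH1 and FN1 (0.81), ZEB2 and CDH2 (0.76) and SNAI1 and SNAI2 (0.72). FN1 ran opposite to SNAI1 (-0.81) and CDH1 opposite to ZEB1 (-0.74).

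Markers of cell types were read over all 14 libraries as a check of the labels. The keratins KRT7, KRT8 and KRT18 averaged 3706, 3056 and 1555 CPM in A549 DMSO libraries and 1002, 466.7 and 267.6 CPM in H1792, so both lines carried epithelial keratins, while EPCAM was at 0.287 and 3.48 CPM. The summed level of 8 epithelial markers, CDH1 among them, ran from 7540 to 9800 CPM with DMSO and from 10700 to 12600 with AMG900 in A549. In H1792 it ran from 1590 to 1990 and from 2010 to 2050. KRT7, KRT8 and KRT18 held nearly all of this sum in both lines, with CDH1 at 21.9 CPM in A549 DMSO libraries and 0.697 CPM in H1792. The lung lineage factor NKX2-1 and the surfactant gene SFTPC were near 0 in both lines, and of 7 alveolar or airway markers FOXA2 at 46.0 CPM in A549 was the one with a mean above 1 CPM in DMSO libraries. H1792 held fibroblast genes at a high level, with COL1A1 at 2368, COL1A2 at 1399 and COL3A1 at 170.5 CPM against 92.9, 0.447 and 0.0539 in A549. The 9 fibroblast markers summed to 3550 to 4520 CPM with DMSO and 2650 to 2730 with AMG900 in H1792, and to 88.3 to 123 and 49.7 to 60.7 in A549, and among them THY1 (0.0105 CPM) and FAP were near 0 in H1792 DMSO libraries. The sum moved with AMG900 in the direction of CDH2, and its part in the results was not tested. Collagen genes held most of it, COL1A1 in A549 and COL1A1 with COL1A2 in H1792. The other fibroblast markers did not all follow the sum. The mean of THY1 rose in A549 (6.36 to 10.7 CPM, without overlap), and that of PDGFRB rose in H1792 (11.1 to 13.5 CPM, with overlap). The means of DCN, LUM and PDGFRA fell in H1792. Endothelial markers summed to at most 17.1 CPM in any library, and the 5 leukocyte markers to 55 to 80.8 CPM with DMSO and 152 to 170 with AMG900 in A549, and to 100 to 116 and 171 to 197 in H1792, without overlap in either line. CD68, a lysosomal protein, held nearly all of that sum (70.3 and 159.4 CPM in A549 and 107 and 183.9 CPM in H1792), with the defining leukocyte genes PTPRC and CD3E at or near 0 in every group.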

How the data were processed

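RNA-seq of A549 and H1792 cells was analysed from 2 deposited tables of raw read counts per gene, 1 for each line. Per the labels and the study's methods, the authors sequenced on a NextSeq 500, and STAR, HTSeq and the genome builds hg19 and GRCh37 are named in the submitters' processing notes. Versions and the strand setting of the counting are not given in the sources used here. The H1792 table holds 28 entries that are dates in place of gene names, which were left out. Of the 26760 names in either table, 23638 matched 1 GENCODE gene, from which GC content, transcript length and GRCh37 positions were read.

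The 10 genes and all gene lists were chosen with earlier results of these data known. Counts were filtered with filterByExpr (minimum 10), scaled by TMM and tested with edgeR 4.0.16 (glmQLFit and glmQLFTest, R 4.3.3) within each line, with Benjamini-Hochberg adjustment over all genes tested and a threshold of 0.01. The line contrast and the interaction came from a fit of all 14 libraries. CPM per kb used the length of the canonical transcript. The cadherin ratio used counts plus 0.5. From each list, up to 3 genes called higher and up to 3 called lower with the largest changes in each line were named, with their values in the other line where they were called there, except 1 gene that is not reported here. For each of the 10 genes the 3 most alike were named. The fits were tested on simulated counts. Alternatives were DESeq2 1.42.0 (the method of the study), DESeq2's size factors in edgeR, scaling by total counts, no filter or 10 counts in every library, all libraries in one fit, a pseudocount of 5 for the ratio, a GC correction (a spline with 5 degrees of freedom per library), a replicate block, an FDR of 0.05, a fold change of at least 2, and leaving out each library. GC-corrected counts for the lists were added after seeing the data. Replicate libraries differed by more than sampling noise (chi-square per gene of 3.31 or more), so none was merged.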

Additional observations from a re-analysis of the deposited data

Results flagged for a closer look

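FN1 in A549 DMSO replicate 1, the library with the fewest counts, lay at 337 CPM while the other 3 DMSO libraries lay between 446 and 467 CPM, a gap larger than Dixon's 95% limit for 4 values. Chance marks about 1 in 20 groups by this measure, and the groups of all 10 genes were read.

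The AMG900 effect differed between H1792 and A549 for 5 genes by edgeR's interaction test. On the log2 scale the difference, H1792 minus A549, was 1.39 for SNAI1, 1.16 for SNAI2, 0.45 for VIM, -0.50 for CDH2 and -1.17 for FN1. For SNAI1 it set a fall in A549 against a rise in H1792, while for CDH2 it set falls of unequal size. The cause was not tested, and line, medium, table and depth cannot be told apart.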

How the results depend on the processing

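Requiring a fold change of at least 2 left 0 of the 10 genes called higher and 1 lower in A549, and 0 and 0 in H1792. In the difference between the lines, SNAI1 and SNAI2 stayed called higher and FN1 lower. The GC correction left 2 lower in A549, and 1 higher and 1 lower in H1792. It turned the sign of ZEB2 (0.23) and TWIST2 (-0.35) in A549 and of ZEB1 (0.13), TWIST1 (-0.026) and TWIST2 (-0.10) in H1792, none of them called by either. Scaling by total counts turned TWIST2 in A549 to -0.015. An FDR of 0.05 gave 4 higher in H1792. With 1 library left out, A549 gave 2 higher and 2 to 5 lower, H1792 2 to 4 higher and 2 to 4 lower, the DMSO contrast of the lines 7 to 8 higher and 2 lower, and the difference between the lines 2 to 3 higher and 2 lower, and TWIST2 in A549 lay between -0.029 and 0.141. A replicate block left 2 lower in A549, with SNAI2 (-0.71, FDR = 0.0183) and CDH2 (-0.35, FDR = 0.0124) lost in edgeR, and SNAI2 lost between the lines (1.16, FDR = 0.0172). Libraries with the same number did not deviate together (r from -0.015 to 0.019 in A549 and from -0.062 to 0.042 in H1792), and the main fits did not pair them. With so few libraries per group, these r values cannot exclude that libraries with the same number shared a culture or batch. For the gene lists, in counts added after seeing the data, the GC correction turned 15 mesenchymal genes called higher in H1792 into 9 and 7 fibronectin receptors into 2. Low counts limit CDH1 in H1792 and the low transcription factors in A549 DMSO replicate 1.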
